A study of Mus musculus with 12 samples.

Results

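The nuclear-encoded subunits of the mitochondrial respiratory chain were examined in livers of KK-Ay mice with type 2 diabetes (T2D) and of their comparison mice. The set held every measured gene named Cycs, Cyc1, Sdha, Sdhb, Sdhc or Sdhd, or with a symbol starting Ndufa, Ndufb, Ndufc, Ndufs, Ndufv (assembly factors Ndufaf left out), Uqcr, Cox4 to Cox8 or Atp5. It came to 84 of the 19938 genes measured by a transcript cluster with a single gene symbol, where a transcript cluster is the group of probes that the array reads as 1 value. Of these genes, 36 belonged to complex I, 4 to complex II, 9 to complex III, 17 to complex IV and 17 to complex V, and 1 was cytochrome c. Subunits with no cluster of their own are not analysed here. The data were 12 Affymetrix arrays in 6 groups of 2, named as in the array titles. Group 42Y held KK-Ay mice and group 42WKK held KK mice, both at 42 weeks, where KK-Ay mice carry the A-y allele of agouti on the KK background and become obese and diabetic. Groups 6Y and 16Y were T2D mice, and group 1 (arrays 1-3 and 1-5) was control mice, but the age of these groups, and the strain of group 1, are not given array by array in the sources used here. In general terms, the methods give 42 weeks as the age of the mice and KK mice as the controls. Group 6K is called T2D in the sample records and control in the design text, and 42Y is called control in the records and T2D in the design text, so the title groups were used. All 6 arrays with a Y in the title are called the Y arrays below, and the 6 arrays of 42WKK, 6K and group 1 the other arrays. No source used here says whether the 2 arrays of a group came from separate mice, so p-values measure only the spread between these arrays.

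The respiratory chain sits in the inner mitochondrial membrane. Complex I takes electrons from NADH and complex II takes them from succinate, coenzyme Q carries them to complex III, and the small protein cytochrome c carries them on to complex IV, which hands them to oxygen. Complexes I, III and IV pump protons, and complex V, the ATP synthase, uses the proton gradient to make ATP. Most subunits are encoded in the nucleus and a few core ones in mitochondrial DNA. In hepatocytes, which are rich in mitochondria, this chain drives ATP supply for gluconeogenesis and urea synthesis.

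Promoters are shown for 4 genes on which the comparisons below turn, Sdhd, Ndufa11, Ndufv3 and Atp5md. Uqcrb is not shown because no promoter window was matched to it. Ndufa11 and Atp5md had more than 1 cluster, and the cluster used for each may read a near-identical copy elsewhere. Their promoters and array values therefore need not belong to the same locus. Each sequence is the 120 bases before the RefSeq transcription start (build GRCm38.p6), printed 5′ to 3′ on the strand of the gene, and capitals mark matches to an NRF1 motif (GCGCA, any base, then GCGC) or an ETS motif (CCGGAAG) on either strand. NRF1 and the ETS-family factor GABP are transcription factors known to bind promoters of many respiratory chain genes.
Sdhd, chr9:50603850-50603969, minus strand: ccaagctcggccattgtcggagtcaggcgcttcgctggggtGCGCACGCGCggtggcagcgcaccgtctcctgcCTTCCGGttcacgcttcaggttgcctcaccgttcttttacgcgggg
Ndufa11, chr17:56717642-56717761, plus strand: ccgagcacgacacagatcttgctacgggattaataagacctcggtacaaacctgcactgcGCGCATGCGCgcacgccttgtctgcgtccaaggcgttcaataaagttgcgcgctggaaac
Ndufv3, chr17:31519995-31520114, plus strand: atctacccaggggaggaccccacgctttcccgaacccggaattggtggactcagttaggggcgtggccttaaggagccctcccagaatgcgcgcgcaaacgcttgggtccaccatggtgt
Atp5md, chr19:47090648-47090767, minus strand: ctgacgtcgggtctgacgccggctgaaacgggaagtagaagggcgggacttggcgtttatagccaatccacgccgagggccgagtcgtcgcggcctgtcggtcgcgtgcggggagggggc
The Sdhd stretch held both motifs, with an NRF1 match upstream of an ETS match, and the Ndufa11 stretch held a single NRF1 match. The Ndufv3 and Atp5md stretches held neither. A RefSeq window from 250 bases before to 50 bases after the start was matched for 68 of the 84 genes, in 73 windows. The NRF1 motif was found in 23.3% of these windows and in 4.6% of all 32851 windows, and the ETS motif in 23.3% and 8.86%. The ERR motif (TCAAGGTCA, bound by estrogen-related receptors) was found in 2.74% of the windows of the set and in 0.423% of all windows. The YY1 motif (AA, any base, then ATGGCGG) was found in 8.22% and 1.36%. All motifs were searched on both strands. A stretch can match more than 1 motif. The Sdhd window also held an ERR match, and the Atp5md window an ETS match, both after the start. These shares describe letters in a window and were not set against the array values.

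The array labels were checked against the A-y allele. The agouti gene a read 6.78 to 7.06 on the log2 scale in the 6 Y arrays and 5.20 to 5.51 in the 6 other arrays, 6K included, so the Y in a title went with a higher agouti signal in all 12 arrays. The sample records name blood, while the study's methods name liver. Array medians of 7 hepatocyte genes were 13 to 13.25, against 3.65 to 4.08 for 4 T cell genes, 2.78 to 3.5 for 3 B cell genes and 4.45 to 5.54 for 5 neutrophil and monocyte genes. Of 5 erythroid genes only Alas2 was measured singly, at 9.29 to 9.81. The lymphocyte genes were dim and those of hepatocytes bright on their own probes. Across all clusters, the 2 arrays of 1 group correlated with each other at a Pearson r of 0.983 in 42Y (the lowest) to 0.991 in 42WKK (the highest). Group 1 is also called control by the sample records and the design text. The 42WKK arrays stood apart from it in 6.04% of genes. Values of group 1 are given beside many of the results that rest on 42WKK.

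Most genes of the set were bright on these arrays. Of the 84 genes, 67 had a mean log2 signal of at least 8 over the 12 arrays, against 2582 of all 19938 genes, and 8 had a mean under 6. Over the 76 genes with a mean of at least 6, the range over the 12 arrays had a median of 0.514 log2 units, and the difference between the 2 arrays of a group had a median of 0.119. The median size of the difference in 42Y against 42WKK was 0.162 over the set, 0.154 over all genes and 0.199 over bright genes. Atp5j, coupling factor 6 of the ATP synthase, varied least, from 10.04 to 10.26. Atp5md, a small membrane subunit of the ATP synthase also called DAPIT, varied most, from 9.22 to 10.55. Of the set, 18 genes had more than 1 cluster, which can share probes or near-identical copies of the sequence. Of their 27 other clusters, 25 correlated with the brightest cluster at 0.8 or more over the 12 arrays, and 26 gave the same sign for 42Y against 42WKK. All values below are of the brightest cluster.

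**Figure D1:**
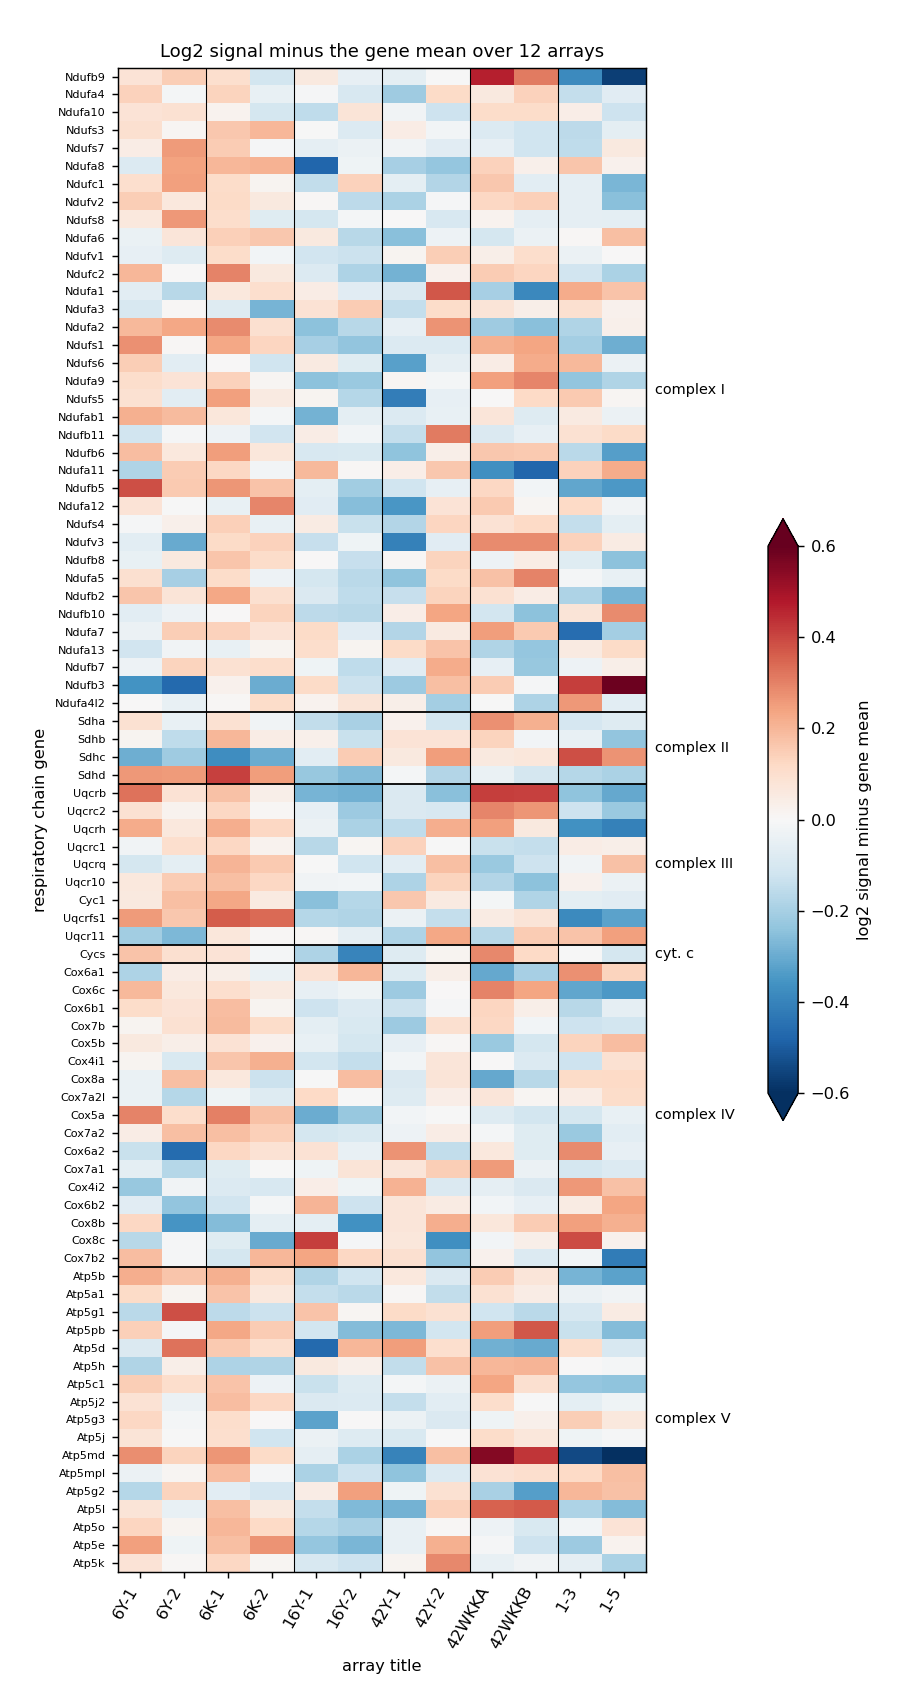
Log2 signal of each of the 84 genes (rows, grouped by complex, brightest first within a complex) minus its mean over 12 arrays (columns, by title). Colours end at 0.6 in either direction, and Ndufb9 and Atp5md are among the darkest, high in 42WKKA and low in 1-5 (9.22 for Atp5md).

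Array medians of the 5 complexes lay between -0.17 and 0.18. The median over the 84 genes of the signal minus the gene's mean was 0.07 and 0.03 in 6Y, against 0.12 and 0.04 in 6K. It was -0.06 and -0.09 in 16Y. It was -0.06 and 0.03 in 42Y, against 0.06 and 0.01 in 42WKK, and -0.04 in both arrays of group 1. Both arrays of 16Y were thus below both arrays of 6Y and 6K, while 42Y-2 lay between the 42WKK arrays. For complex V the values were 0.09 and 0.02 in 6Y, against 0.17 and 0.06 in 6K, and -0.14 and -0.12 in 16Y. They were -0.05 and 0.01 in 42Y, against 0.09 and 0.04 in 42WKK, and -0.05 and -0.02 in group 1. Complex V had its lowest medians in the 16Y arrays, below all 10 others. Complex IV varied least, with all 12 array medians between -0.07 (42WKKB) and 0.06 (6K-1). These medians include 7 dim forms with a mean under 6, out of 17 genes. All bright genes, taken as the 2582 with a mean of at least 8, also moved, from -0.10 in 1-5 to 0.08 in 42WKKB.

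**Figure D2:**
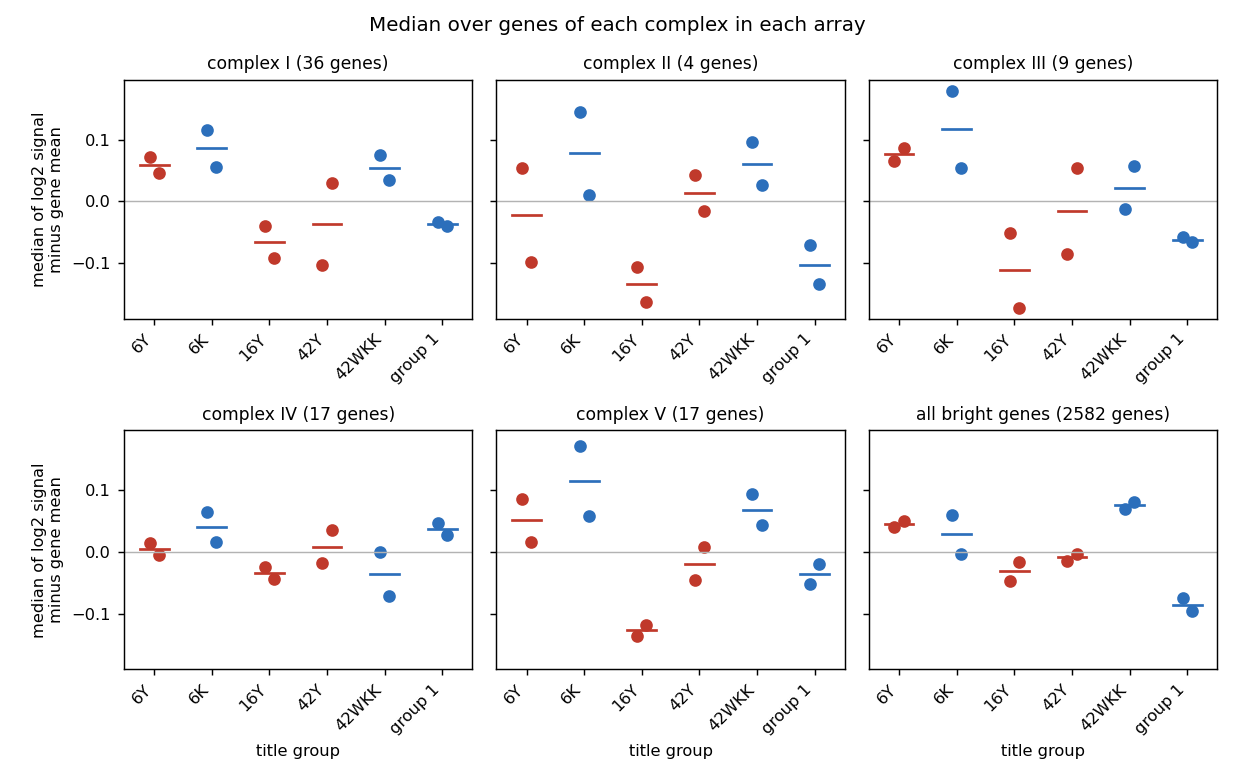
Median over the genes of a complex of log2 signal minus the gene mean (y axis), in each array, by title group (x axis), with all 2582 bright genes in the last panel. Points are arrays, bars are means of 2 arrays, red marks Y groups and blue the others. Complex V was lowest in both 16Y arrays, at -0.14 and -0.12.

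The comparison of 42Y with 42WKK asked how the liver of old KK-Ay mice differs from that of KK mice of the same age. In this comparison 1 of the 84 genes passed the test, Uqcrb, which was lower in 42Y. The test was limma's moderated test with Benjamini-Hochberg adjusted p-values taken across the 35556 clusters, and a gene was called at an adjusted p under 0.05. The share called was 1.19% of the set, against 1.92% of all genes in either direction (1.08% lower) and 4.3% of bright genes, so the count is no result about the set. In these bulk samples, fewer cells of a type and less RNA per cell cannot be told apart. At an unadjusted p under 0.05 there were 18 genes, 12 of them with a lower mean in 42Y, which is 21.4% of the set, against 17.9% of all genes and 33.9% of bright genes. Means were lower in 42Y for 49 genes and higher for 35, and the differences had a median of -0.07 and ran from -0.60 to 0.52. The median was 0.00126 over all genes and -0.09 over bright genes, and over the 67 bright genes of the set it was -0.12. All arrays of 42Y lay above all of 42WKK for 18 genes and below for 32, or 21.4% and 38.1% of the set. The shares over all genes were 24.4% and 25.6%, and over bright genes 23.2% and 46.5%.

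Uqcrb, a small subunit of complex III on its matrix side, read 11.02 and 10.86 in 42Y, against 11.53 and 11.52 in 42WKK. It read 11.44 and 11.20 in 6Y, against 11.29 and 11.15 in 6K, and 10.83 and 10.82 in 16Y and 10.87 and 10.80 in group 1. The 42WKK arrays were above all 10 others, and the 42Y arrays lay close to 16Y and group 1. The difference between 42Y and 42WKK was -0.58 (SE 0.114, adjusted p = 0.0455), a level 0.668 times that of 42WKK. The other 2 clusters of Uqcrb gave -0.57 and -0.59, and since they may share sequence they are not independent readings. The call was lost in 16 of 21 alternatives, with the adjusted p ranging from 0.00838 to 0.415, and with group 1 in place of 42WKK no gene of the set was called and the median was 0.0268.

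Among complex I subunits, the 6 core genes of the set (Ndufs1, Ndufs3, Ndufs7, Ndufs8, Ndufv1 and Ndufv2), which carry the flavin and iron-sulfur clusters or shape the quinone site, differed by -0.31 to 0.12. Of them 3 had a lower mean in 42Y and 3 a higher one. The 30 accessory genes differed by -0.52 to 0.52, with 21 lower and 9 higher means. The lowest of complex I was Ndufv3, an accessory subunit of the NADH-binding module, at 7.62 and 7.96 in 42Y, against 8.31 and 8.31 in 42WKK. Both 42Y arrays were below both 42WKK arrays, but the 2 arrays of 42Y were 0.34 apart. The difference was -0.52 (SE 0.134, adjusted p = 0.101). The highest was Ndufa11, a membrane-arm accessory subunit, at 8.76 and 8.88 in 42Y, against 8.35 and 8.25 in 42WKK. It read 8.54 and 8.87 in 6Y, against 8.85 and 8.71 in 6K, and 8.92 and 8.73 in 16Y and 8.86 and 8.95 in group 1, so both 42WKK arrays were below all 10 others. The difference was 0.52 (SE 0.135, adjusted p = 0.101), and its other cluster gave 0.32. Ndufa1 and Ndufa13, 2 more accessory subunits, had differences of 0.44 and 0.35, and Ndufb9, of the membrane arm, had -0.42. None of these passed the adjusted test. Ndufa1 read 9.05 and 9.51 in 42Y, against 8.93 and 8.75 in 42WKK and 9.36 and 9.31 in group 1, and Ndufa13 read 7.46 and 7.52 in 42Y, against 7.16 and 7.11 in 42WKK and 7.40 and 7.46 in group 1. The mean of Ndufa1 in 42Y was thus above that of 42WKK and below that of group 1.

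In complex II, which is also the succinate dehydrogenase of the citric acid cycle, the flavoprotein gene Sdha read 10.77 and 10.63 in 42Y, against 11.02 and 10.96 in 42WKK. It read 10.84 and 10.70 in 6Y, against 10.83 and 10.72 in 6K, and 10.60 and 10.55 in 16Y and 10.64 and 10.67 in group 1. The 42WKK arrays were the highest of the 12, and the difference of 42Y from them was -0.29 (SE 0.1, adjusted p = 0.194). The membrane anchor Sdhc read 10.03 and 10.22 in 42Y, against 10.03 and 10.04 in 42WKK, with a difference of 0.09 (SE 0.115, adjusted p = 0.744). It read 9.68 and 9.76 in 6Y, against 9.60 and 9.67 in 6K, and 9.91 and 10.12 in 16Y and 10.35 and 10.24 in group 1. The lowest Sdhc values were thus in the 6Y and 6K arrays and the highest were in 1-3. The iron-sulfur subunit Sdhb and the second anchor Sdhd differed by 0.02 and -0.02.

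In complex III the differences had a median of 0.03. The core protein gene Uqcrc2 read 10.29 and 10.28 in 42Y, against 10.67 and 10.64 in 42WKK, and 10.47 and 10.40 in 6Y, against 10.50 and 10.38 in 6K. It read 10.33 and 10.16 in 16Y and 10.25 and 10.15 in group 1. As for Uqcrb, the 42WKK arrays were above the 10 others, and the difference was -0.37 (SE 0.101, adjusted p = 0.115). Its partner Uqcrc1 differed the other way, by 0.21, and so did Cyc1, the cytochrome c1 heme subunit, by 0.21. Uqcrc1 read 10.21 and 10.07 in 42Y, against 9.93 and 9.93 in 42WKK and 10.11 and 10.10 in group 1, and Cyc1 read 9.22 and 9.11 in 42Y, against 9.05 and 8.88 in 42WKK and 9.001 and 8.99 in group 1. The 42Y arrays of Cyc1 were above those of 42WKK and group 1 but overlapped those of 6K, at 9.29 and 9.11. The 42Y arrays of Uqcrc1 overlapped group 1. Uqcrq, a small subunit that contacts cytochrome b, had the highest difference of the complex, 0.23 (SE 0.119, adjusted p = 0.369). It read 9.58 and 9.82 in 42Y, against 9.42 and 9.52 in 42WKK, and 9.54 and 9.58 in 6Y, against 9.84 and 9.80 in 6K. It read 9.64 and 9.52 in 16Y and 9.62 and 9.82 in group 1, and the 42Y arrays lay within the range of the other groups. Cycs, the gene of cytochrome c, read 10.62 and 10.71 in 42Y, against 10.98 and 10.81 in 42WKK. It read 10.87 and 10.79 in 6Y, against 10.78 and 10.68 in 6K, and 10.51 and 10.30 in 16Y and 10.69 and 10.59 in group 1. Its difference was -0.23 (SE 0.114, adjusted p = 0.341). The second Cycs cluster, with a mean of 10.14, gave -0.34. The third had the opposite sign, at 0.16 (SE 0.246), but was dim, with a mean of 4.27.

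In complex IV the differences had a median of 0.05 and in complex V of -0.13. Cox6c, a membrane subunit of complex IV, had the lowest value of its complex, at 10.90 and 11.12 in 42Y, against 11.42 and 11.36 in 42WKK. It read 11.31 and 11.18 in 6Y, against 11.22 and 11.18 in 6K, and 11.07 and 11.10 in 16Y and 10.81 and 10.78 in group 1. The 42WKK arrays were the highest and the group 1 arrays the lowest, with 42Y between them, and the difference was -0.38 (SE 0.105, adjusted p = 0.12). Cox6a1, the liver form of subunit 6a, read 11.15 and 11.26 in 42Y, against 10.92 and 11.02 in 42WKK, with a difference of 0.23 (SE 0.116, adjusted p = 0.353). It read 11.04 and 11.27 in 6Y, against 11.26 and 11.18 in 6K, and 11.31 and 11.42 in 16Y and 11.50 and 11.36 in group 1. Here the 42WKK arrays were the lowest of the 12, opposite to Cox6c.

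In complex V the genes of the F1 part, which holds the catalytic sites and the central stalk (Atp5a1, Atp5b, Atp5c1, Atp5d and Atp5e) differed by -0.19 to 0.47, the 3 genes of the c ring by -0.06 to 0.30, and the 9 genes of the stalks and the other membrane parts by -0.60 to 0.18, with 7 of the 9 lower. Atp5md was the lowest, at 9.60 and 10.17 in 42Y, against 10.55 and 10.43 in 42WKK. It read 10.28 and 10.13 in 6Y, against 10.26 and 10.11 in 6K, and 9.94 and 9.80 in 16Y and 9.46 and 9.22 in group 1. The 42WKK arrays were the highest and the group 1 arrays the lowest, and the 2 arrays of 42Y were 0.58 apart. The difference was -0.60 (SE 0.184, adjusted p = 0.146). Atp5d, the delta subunit of the rotor stalk, was the highest, at 10.85 and 10.70 in 42Y, against 10.31 and 10.29 in 42WKK. It read 10.51 and 10.92 in 6Y, against 10.76 and 10.70 in 6K, and 10.13 and 10.80 in 16Y and 10.70 and 10.50 in group 1. The arrays of 16Y alone spanned most of that range, and the difference was 0.47 (SE 0.215, adjusted p = 0.306). Atp5pb, the b subunit of the peripheral stalk, and Atp5l, the membrane subunit g, differed by -0.50 (SE 0.114, adjusted p = 0.0737) and -0.43 (SE 0.141, adjusted p = 0.169). The other cluster of Atp5pb gave -0.20 (adjusted p = 0.38).

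Array 42Y-1 carried much of the shift. Without 42Y-1 the median over the set was -0.0027, and without 42Y-2 it was -0.08. The arrays of 42Y also differed in small RNA clusters, whose array medians over 101 clusters were 6.42 and 7.12 in 42Y, against 6.22 in both arrays of 42WKK. Of 5 neutrophil and monocyte genes 0 were called in 42Y against 42WKK, with a median difference of 1.13. Of 4 genes listed for brown fat 1 was lower in 42Y, Elovl3 at -1.43, and 1 gene cannot show a difference in that cell type. The part of these in the results was not tested.

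**Figure D3:**
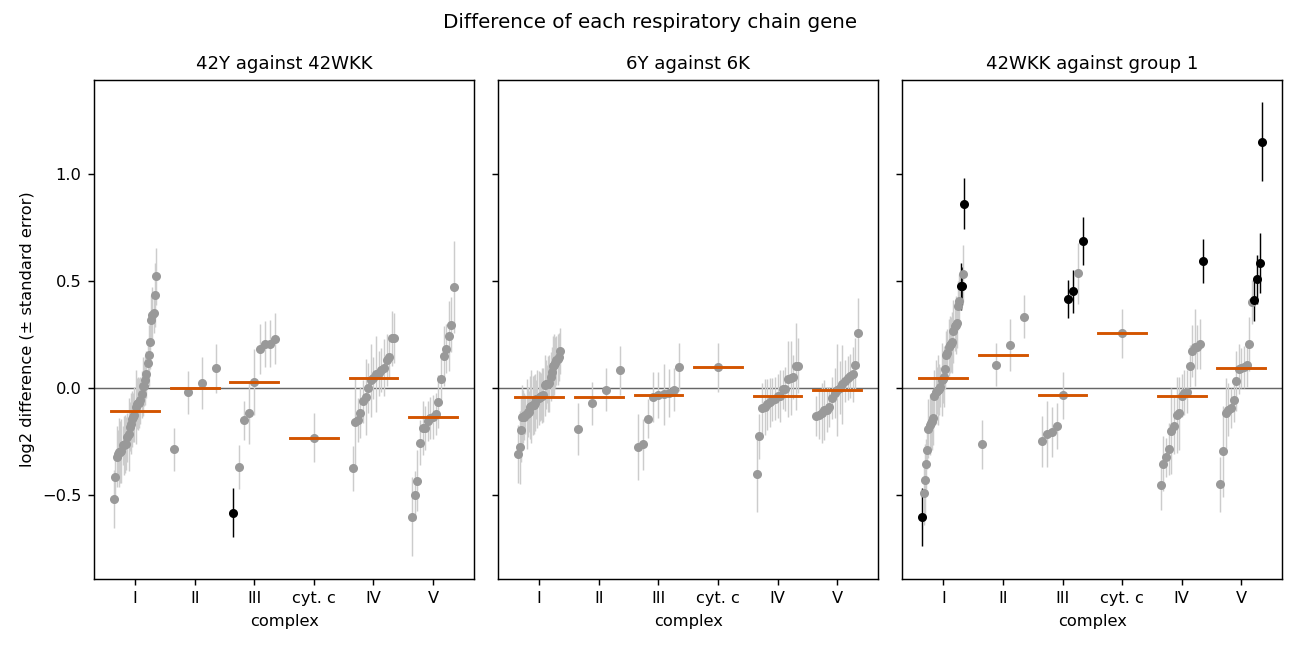
Log2 difference (y axis, ± standard error of the limma fit) of each gene by complex (x axis), in 3 comparisons of 2 against 2 arrays. Black points passed the adjusted test, grey ones did not, and orange bars are medians of a complex. The spread of points is narrowest in 6Y against 6K, from -0.40 to 0.26, and 1, 0 and 12 genes are black from left to right.

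The comparison of 6Y with 6K set the T2D mice labelled 6Y against the arrays of the same number labelled K. No gene of the set was called by limma, against 0.00502% of all genes and 0.0% of bright genes, and 1 gene had an unadjusted p under 0.05, Ndufv3, or 1.19% of the set, against 4.6% of all genes and 3.64% of bright genes. The differences had a median of -0.04 and ran from -0.40 to 0.26, and the median over all genes was 0.00379. The median of the set was 0.0155 without 6K-1 and -0.0704 without 6K-2, so its sign rests on 6K-1. All arrays of 6Y lay above all of 6K for 4 genes and below for 18, or 4.76% and 21.4% of the set, against 18.3% and 17.5% of all genes and 22.3% and 15.3% of bright genes. Ndufv3 read 7.96 and 7.72 in 6Y, against 8.14 and 8.16 in 6K, a difference of -0.31 (SE 0.134, adjusted p = 0.921). Both 6Y arrays were below both 6K arrays. Ndufab1, the mitochondrial acyl carrier protein, was the highest of complex I, at 9.08 and 9.06 in 6Y, against 8.94 and 8.86 in 6K, with a difference of 0.17 (SE 0.11, adjusted p = 0.921). The 2 groups did not overlap for Ndufab1, but its values in 42Y were 8.79 and 8.83, against 8.94 and 8.79 in 42WKK, which did.

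In the same comparison, Sdhb was lowest in complex II, at 10.25 and 10.08 in 6Y, against 10.43 and 10.28 in 6K, with a difference of -0.19 (SE 0.122, adjusted p = 0.921). Uqcr11, the smallest subunit of complex III, read 8.28 and 8.22 in 6Y, against 8.55 and 8.49 in 6K, with a difference of -0.27 (SE 0.154, adjusted p = 0.921). Neither group pair overlapped, but neither difference was beyond the adjusted threshold. In complex V, Atp5j2, the membrane subunit f, read 10.48 and 10.36 in 6Y, against 10.58 and 10.52 in 6K, with a difference of -0.13. Atp5g1, 1 of 3 genes that encode the c subunit of the proton-driven ring, read 10.86 and 11.41 in 6Y, against 10.86 and 10.89 in 6K, with a difference of 0.26 (SE 0.164, adjusted p = 0.921). Array 6Y-2 alone was high for Atp5g1, and without it the difference was -0.0169. In complex IV, Cox6a2, the muscle form of subunit 6a, read 5.29 and 4.97 in 6Y, against 5.55 and 5.52 in 6K, and Cox8a, the subunit 8 of liver, read 9.46 and 9.68 in 6Y, against 9.56 and 9.37 in 6K. Their differences were -0.40 and 0.10, and the Cox8a groups overlapped.

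Whether the Y difference itself changed between the pair numbered 6 and the pair numbered 42 was tested as an interaction. No gene of the set was called, against 0.0953% of all genes and 0.271% of bright genes, and 11 genes had an unadjusted p under 0.05, or 13.1% of the set, against 13.4% of all genes and 24.6% of bright genes. The lowest value was that of Uqcrb, -0.68 (SE 0.161, adjusted p = 0.142), since its difference was 0.10 in 6Y against 6K and -0.58 in 42Y against 42WKK. The highest was that of Ndufa1, 0.63 (SE 0.213, adjusted p = 0.269). Ndufa11 had 0.59 (SE 0.191, adjusted p = 0.251), from differences of -0.07 in 6Y against 6K and 0.52 in 42Y against 42WKK.

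Over all arrays, the 6 Y arrays were set against the 6 other arrays. No gene of the set was called by limma, against 0.261% of all genes and 0.503% of bright genes, and 7 genes had an unadjusted p under 0.05, all with lower means in the Y arrays. These 7 are 8.33% of the set, below the 12.6% of all genes and 20.4% of bright genes at that p. The median difference was -0.03. Only Ndufv3 had 6 Y arrays that did not overlap the 6 others, which is 1.19% of the set, against 0.166% of all genes and 0.349% of bright genes in that direction. No gene of the set lay wholly above, against 0.191% of all genes and 0.116% of bright genes. Ndufv3 read 7.96 and 7.72 in 6Y, 7.89 and 7.999 in 16Y, then 7.62 and 7.96 in 42Y. It read 8.31 and 8.31 in 42WKK, 8.14 and 8.16 in 6K and 8.16 and 8.08 in group 1. The highest Y array, 16Y-2, was below the lowest other array, 1-5. The mean was 7.86 ± 0.153 in the Y arrays and 8.19 ± 0.0948 in the other arrays (SD, n = 6 arrays each), a difference of -0.33 (SE 0.0773, limma adjusted p = 0.15). The exact two-sided permutation test over all 924 splits gave p = 0.002165, the smallest p it can give, and an adjusted p of 0.608 over all genes. Every gene whose 6 Y arrays do not overlap the 6 others gets this p, so it only restates the lack of overlap. The adjusted 0.608 was also the smallest of any gene, so by it this test called none. The splits moved single arrays, although these came in groups of 2 that may not be independent. The p is thus not one for groups or mice. In that test 5 genes of the set, or 5.95%, had a p under 0.05, against 6.69% of all genes, so the count is near the background. After Ndufv3 the smallest p was that of Atp5mpl, a small membrane proteolipid of the ATP synthase, with 9.75 ± 0.0937 in the Y arrays and 9.97 ± 0.0713 in the other arrays.

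The 3 Y groups were compared in order. In 16Y against 6Y, 1 gene of the set was called, Sdhd, which was lower in 16Y, and the share of 1.19% compares with 1.99% of all genes (1.48% lower) and 4.49% of bright genes. Means were lower in 16Y for 61 genes and higher for 23, with a median of -0.12, against 0.01 over all genes and -0.08 over bright genes. Over the 67 bright genes of the set it was -0.18. At an unadjusted p under 0.05 there were 16 genes, or 19.05% of the set, against 18.54% of all genes and 33.04% of bright genes. The median of the set was -0.20 after median centring and -0.08 after quantile normalization. All arrays of 16Y lay below all of 6Y for 45 genes, or 53.6% of the set, against 25.3% of all genes and 44.3% of bright genes, and above for 10, or 11.9%, against 25.9% of all genes and 24.3% of bright genes. By complex the median was -0.11 in I, -0.09 in II, -0.19 in III, 0.02 in IV and -0.22 in V. The complex IV median mixed 7 dim forms with a mean under 6, whose median was 0.14, with 10 other genes, at -0.13. All 6 core genes of complex I, all 4 core and redox genes of complex III and all 5 F1 genes of complex V had lower means in 16Y, and none of them passed the adjusted test as a single gene. So did 22 of the 30 accessory genes of complex I have lower means. Lower means were found for 53 of the 67 bright genes of the set and for 1579 of all 2582 bright genes. The differences of the F1 genes ran from -0.37 to -0.22.

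Sdhd, a membrane anchor of complex II that helps bind coenzyme Q, read 9.39 and 9.36 in 16Y, against 9.88 and 9.87 in 6Y. It read 9.60 and 9.44 in 42Y, against 9.57 and 9.51 in 42WKK, and 10.03 and 9.87 in 6K and 9.45 and 9.42 in group 1. The 6Y and 6K arrays were above the 8 others. The difference of 16Y from 6Y was -0.50 (SE 0.101, adjusted p = 0.0491), a level 0.705 times that of 6Y, and the call was lost in 15 of 22 alternatives, some of which leave out 1 array. The other anchor, Sdhc, differed by 0.30 with higher values in 16Y, and its adjusted p was 0.217. Uqcrb, Cox5a (a nuclear subunit on the matrix side of complex IV) and Cycs followed Sdhd in size, at -0.49 (SE 0.114, adjusted p = 0.0715), -0.46 (SE 0.102, adjusted p = 0.0624) and -0.42 (SE 0.114, adjusted p = 0.103). Genes of another cell type moved in the same comparison. Of 5 liver endothelial genes, 3 were lower in 16Y by the same test, Kdr, Lyve1 and Clec4g, with array medians of the list of 7.09 and 7.24 in 16Y, against 7.92 and 8.32 in 6Y. Of 5 stellate cell genes 1 was lower in 16Y, Col3a1 at -1.17. The small RNA medians were 6.75 and 6.86 in 16Y, against 6.23 and 6.34 in 6Y. The part of these in the result was not tested.

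In 42Y against 16Y no gene of the set was called, against 0.431% of all genes and 0.813% of bright genes, and 7 genes had an unadjusted p under 0.05, or 8.33% of the set, against 13.6% of all genes and 20.4% of bright genes. Means were higher in 42Y for 58 of the 84 genes, with a median of 0.05, against -0.02 over all genes. All arrays of 42Y lay above all of 16Y for 23 genes, or 27.4% of the set, against 19.5% of all genes and 29.4% of bright genes, and below for 2 genes, against 24.0% of all genes and 23.5% of bright genes. This comparison shares the 16Y arrays with that of 16Y against 6Y, so low values in 16Y enter both with opposite sign. Cyc1 read 9.12 and 9.24 in 6Y, 8.81 and 8.89 in 16Y, then 9.22 and 9.11 in 42Y. Cox5a read 9.37 and 9.17 in 6Y, 8.77 and 8.84 in 16Y, then 9.05 and 9.07 in 42Y. Both genes were lowest in the 16Y arrays among the Y arrays.

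Both sources call 42WKK and group 1 controls, and of the pairs of groups tested this one gave the most calls. In 42WKK against group 1, 12 of the 84 genes were called, 11 higher and 1 lower in 42WKK. The split depended on the scaling, with 4 higher and 4 lower and a median of -0.0302 after quantile normalization, and 17 higher and 0 lower and a median of 0.182 after median centring. Over all 35556 clusters, 1570 were called after quantile normalization and 3108 after median centring. The 12 genes are 14.3% of the set, against 6.04% of all genes (4.58% higher and 1.46% lower). All 12 were among the 67 bright genes of the set, or 17.9% of these, against 16.5% of all bright genes. Among genes of like brightness the share was thus near the background. The median difference was 0.05 over the set, 0.09 over the bright genes of the set and 0.17 over all bright genes. Of the 12 genes, 4 were of complex I, 3 of complex III, 1 of complex IV and 4 of complex V. Since no source used here gives the age or strain of group 1 by array, age, strain and batch cannot be told apart in this comparison. The count was 5 without the 6K arrays and 0 with these groups compared alone, and leaving out single arrays gave 0 (without 1-5, 42WKKA or 42WKKB), 1 (without 1-3), 5 to 7 (without an array of 6K, 6Y or 16Y) or 13 (without one of 42Y).

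Atp5md had the largest difference, 1.15 (SE 0.184, adjusted p = 0.0168), or 2.22 times the level of group 1, with the array values given above. Its other 2 clusters gave 1.21 and 1.17. Ndufb9 read 12.01 and 11.85 in 42WKK, against 11.16 and 10.98 in group 1, a difference of 0.86 (SE 0.118, adjusted p = 0.0135). It read 11.62 and 11.69 in 6Y, against 11.64 and 11.43 in 6K, and 11.60 and 11.49 in 16Y, with 11.48 and 11.54 in 42Y, so the 42WKK arrays were the highest and those of group 1 the lowest of the 12. The subunits Uqcrb, Cox6c and Uqcrc2, whose values are given above, differed by 0.69 (SE 0.114, adjusted p = 0.0183), 0.59 (SE 0.105, adjusted p = 0.0207) and 0.45 (SE 0.101, adjusted p = 0.0397). The other cluster of Cox6c gave 0.46 (adjusted p = 0.0573). Uqcrfs1, the Rieske iron-sulfur protein of complex III, read 8.54 and 8.57 in 42WKK, against 8.11 and 8.17 in group 1, a difference of 0.42 (SE 0.0907, adjusted p = 0.0373). It read 8.74 and 8.65 in 6Y, against 8.85 and 8.83 in 6K, and 8.32 and 8.31 in 16Y, with 8.45 and 8.35 in 42Y. For this gene 6K was the highest group and group 1 the lowest.

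In complex I, Ndufs1, the largest iron-sulfur core subunit, read 9.26 and 9.28 in 42WKK, against 8.84 and 8.75 in group 1, a difference of 0.47 (SE 0.11, adjusted p = 0.0444). It read 9.32 and 9.05 in 6Y, against 9.28 and 9.17 in 6K, and 8.85 and 8.80 in 16Y, with 8.96 and 8.96 in 42Y. Array 1-5 was the lowest of the 12 and 6Y-1 the highest. Ndufa9, an accessory subunit near the quinone site, read 9.23 and 9.27 in 42WKK, against 8.74 and 8.80 in group 1, a difference of 0.48 (SE 0.0898, adjusted p = 0.0247). It read 9.09 and 9.06 in 6Y, against 9.12 and 8.99 in 6K, and 8.73 and 8.76 in 16Y, with 8.99 and 8.97 in 42Y. Here the 42WKK arrays were the highest, and group 1 and 16Y were the lowest. Ndufa11 went the other way, at -0.60 (SE 0.135, adjusted p = 0.0403), as the only called gene that was lower in 42WKK. Its other cluster gave -0.32 (adjusted p = 0.12), and its call was lost in 12 of 21 alternatives.

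In complex V, Atp5b, the catalytic beta subunit, read 12.08 and 12.001 in 42WKK, against 11.65 and 11.61 in group 1, a difference of 0.41 (SE 0.0983, adjusted p = 0.0484). It read 12.15 and 12.10 in 6Y, against 12.14 and 12.03 in 6K, and 11.75 and 11.81 in 16Y, with 11.99 and 11.84 in 42Y. Group 1 was lowest and 16Y next, while the 6K arrays overlapped both 6Y and 42WKK. Atp5pb read 11.11 and 11.23 in 42WKK, against 10.72 and 10.60 in group 1, a difference of 0.51 (SE 0.114, adjusted p = 0.0405), while its other cluster gave 0.36 (adjusted p = 0.0779). It read 11 and 10.85 in 6Y, against 11.09 and 11.01 in 6K, and 10.75 and 10.60 in 16Y, with 10.59 and 10.75 in 42Y. The 42WKK arrays were again the highest, and 42Y, 16Y and group 1 overlapped. Atp5l read 10.04 and 10.06 in 42WKK, against 9.51 and 9.43 in group 1, a difference of 0.58 (SE 0.141, adjusted p = 0.0499). It read 9.76 and 9.65 in 6Y, against 9.87 and 9.75 in 6K, and 9.55 and 9.43 in 16Y, with 9.41 and 9.83 in 42Y. Its 42WKK arrays were the highest of the 12, and the arrays of 42Y were far apart. The 5 other clusters of Atp5l gave 0.58 to 0.66, and 2 of them missed the threshold (adjusted p = 0.0527 and 0.0528). In the same comparison 2 of the 5 liver endothelial genes, Kdr and Clec4g, were higher in 42WKK, with array medians of the list of 7.82 and 7.78 in 42WKK, against 7.06 and 6.76 in group 1. Small RNA medians were 6.22 in both arrays of 42WKK, against 6.49 and 6.52 in group 1. The part of these in the result was not tested.

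**Figure D4:**
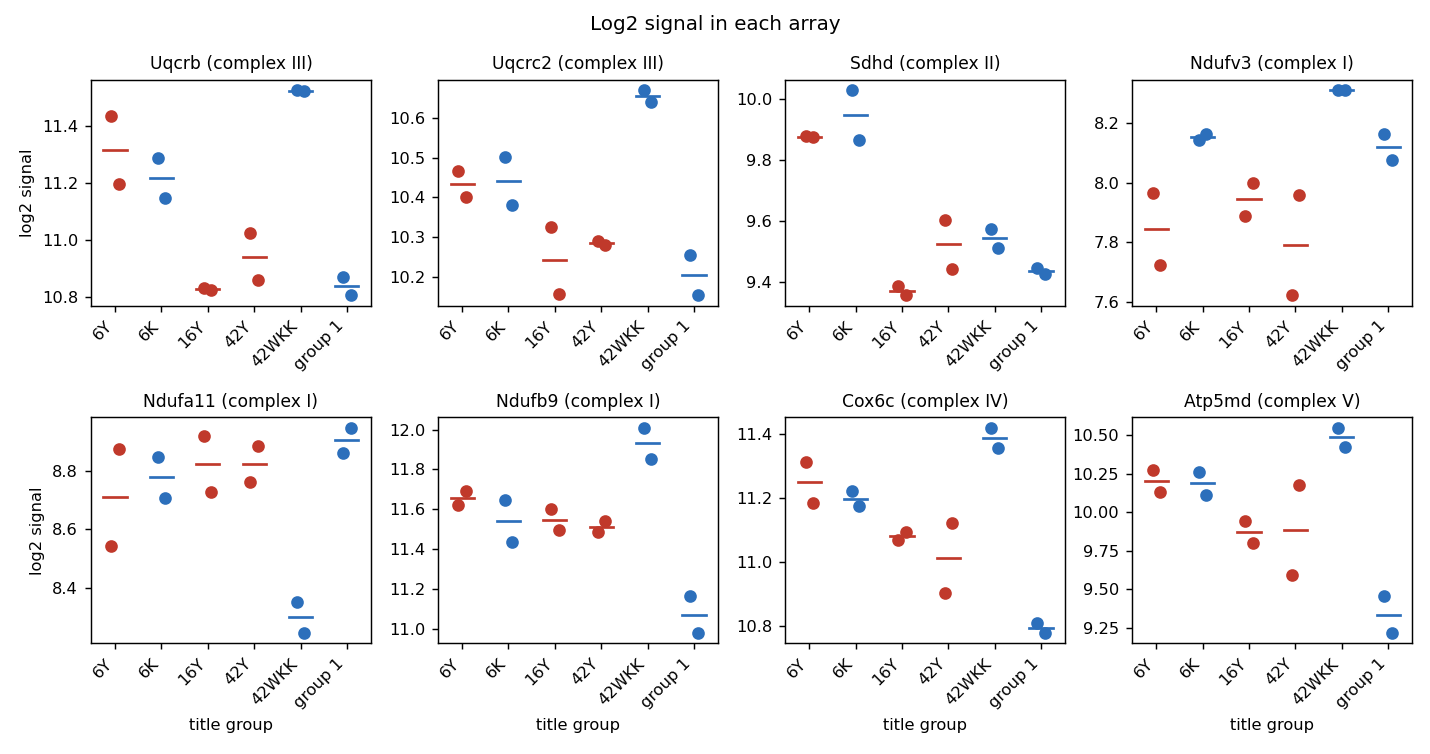
Log2 signal (y axis, a separate scale for each gene) of 8 genes in each array by title group (x axis). Points are arrays, bars are means of 2 arrays, red marks Y groups and blue the others. For Uqcrb, Uqcrc2, Ndufb9, Cox6c and Atp5md both 42WKK arrays are the highest of the 12, and for Ndufv3 all red points lie below all blue ones.

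In 42WKK against 6K no gene of the set was called, against 1.03% of all genes and 2.4% of bright genes, and 15 genes had an unadjusted p under 0.05, or 17.9% of the set, against 16.0% of all genes and 32.3% of bright genes. The median difference was -0.04. Ndufa11 had the lowest value, -0.48 (SE 0.135, adjusted p = 0.147), and Sdhc the highest, 0.40 (SE 0.115, adjusted p = 0.153). The comparisons of 42WKK with 6K, with group 1 and with 42Y share the 42WKK arrays.

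Subunit forms known from muscle, lung or testis were dim in all arrays. Cox4i2 read 4.53 to 5.02, Cox6a2 4.97 to 5.71, Cox6b2 4.05 to 4.52, Cox7a1 4.67 to 5.10, Cox8b 3.13 to 3.74 and Cox8c 2.82 to 3.61 over the 12 arrays. Cox7b2 read 1.75 to 2.41 and Ndufa4l2, a hypoxia-inducible relative of Ndufa4, 4.89 to 5.35. These are the 8 genes of the set with a mean under 6, and none was called in any of the 8 comparisons. The differences of the 7 complex IV forms in 42Y against 42WKK ran from -0.16 to 0.13. Ndufa4, now assigned to complex IV although grouped with complex I by its symbol, read 10.74 to 11.09. Cox7a2l, a factor of respiratory supercomplexes, read 9.31 to 9.60, and its other cluster correlated with it at only 0.02. Among the remaining genes that end the order of a complex by mean signal, Atp5k, the membrane subunit e of the ATP synthase, read 6.61 to 7.09.

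Genes around the chain were described by counts from lists. In 42Y against 42WKK, 0 of 42 assembly factors, 0 of 12 citric acid cycle genes and 0 of 6 carrier and uncoupling genes were called. Of 17 regulators and mtDNA maintenance genes 1 was higher, the coactivator Pprc1 at 0.92 (SE 0.15, adjusted p = 0.0294). Of 12 coenzyme Q genes 1 was higher, Coq10b, which binds coenzyme Q, at 1.01 (SE 0.157, adjusted p = 0.025). Of 77 mitochondrial ribosomal proteins 1 was lower, Mrpl15 at -0.52 (SE 0.104, adjusted p = 0.0475), and of 59 cytosolic ones 1 was higher, Rplp1 at 0.70 (SE 0.0984, adjusted p = 0.0184). These counts stand beside 1.92% of all genes called, and the medians of the lists ran from -0.21 (citric acid cycle) to 0.04 (cytosolic ribosomal proteins). Only 2 mitochondrially encoded subunits were measured singly and neither was called in any comparison.

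In 16Y against 6Y, the assembly factors Ndufaf7 and Taco1 were lower, at -0.67 (SE 0.102, adjusted p = 0.0307) and -0.78 (SE 0.115, adjusted p = 0.0296), as 2 of 42. The mtRNA-binding protein Slirp was lower by the same test at -0.81 (SE 0.127, adjusted p = 0.0316), and so was Slc25a4, the muscle form of the ADP/ATP carrier, at -1.06 (SE 0.15, adjusted p = 0.0272). Of the mitochondrial ribosomal proteins 3 of 77 were lower, Mrpl35, Mrps28 and Mrps22. Slirp was 1 of 17 regulators and Slc25a4 1 of 6 carriers. No gene of the citric acid cycle (12), coenzyme Q (12) or cytosolic ribosomal (59) lists was called. None of these lists had a gene called higher in 16Y. Beside these counts, 1.48% of all genes were called lower and 0.507% higher, and 3.6% and 0.891% of bright genes. In 42WKK against group 1, 4 of 42 assembly factors, 4 of 17 regulators, 4 of 12 citric acid cycle genes and 1 of 12 coenzyme Q genes were higher and none lower, beside 4.58% of all genes and 14.3% of bright genes called higher. The regulators were Gabpa, which binds ETS motifs, Tfam and Tfb2m, which serve transcription of mitochondrial DNA, and Slirp. Gabpa differed by 0.71, Tfam by 0.63, Tfb2m by 0.74 and Slirp by 0.60. Of the mitochondrial ribosomal proteins 1 was higher and 2 were lower. Of 59 cytosolic ribosomal proteins 2 were higher and 2 lower, and 0 of 6 carrier and uncoupling genes were called. In 6Y against 6K no gene of any of these lists was called.

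The members' shared pattern was taken as the median over the 67 bright genes of the set in each array. Over the 12 arrays, 40 of the 67 genes correlated with it at above 0.5 and 12 at below 0. Cox6b1, which lies where the monomers of the complex IV dimer meet, was closest with a Pearson correlation of 0.956, followed by Ndufc2 at 0.918. Sdhc was farthest at -0.67, with Atp5g2, a gene of the c ring, at -0.56 and Cox6a1 at -0.53. Each of the 67 genes is part of the median. Among 2515 bright genes outside the set, the most alike were Psmb7 at 0.96, Scpep1 at 0.95, Degs1 at 0.941, Psma1 at 0.931 and Timmdc1, a complex I assembly factor, at 0.926. Ppia, H2-Q10, BC004004, Slirp and Psma4 followed, down to 0.91. All these correlations are over 12 arrays that share normalization and groups, and they are descriptions.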

How the data were processed

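Total RNA of 12 samples was hybridised to Affymetrix arrays. The deposited values are log2 signals that the authors made with Affymetrix Expression Console by robust multi-array average (RMA), which includes background correction and quantile normalization, so a shift common to all mRNAs cannot be seen. An exon array of the mouse is given in the methods, but the probe identifiers matched the annotation of a mouse gene array. Of 35556 transcript clusters, 21789 had 1 gene symbol, 1621 had several and 12146 had none, and 21698 matched a gene ID of the reference tables. A gene was represented by its cluster with the highest mean. All 6 groups were fitted together in limma 3.58.1 (R 4.3.3) with lmFit and eBayes, no variance trend and no dim filter, for 8 comparisons, with Benjamini-Hochberg adjustment over all clusters and a threshold of 0.05. The fit was tested on simulated data. Genes were named if called, if the lowest or highest in difference (42Y against 42WKK, 6Y against 6K) or mean signal of a complex, or if described for their role. The members and lists were chosen with earlier results of these data known. The number of arrays limits precision. Sequences are from RefSeq (GRCm38.p6). Alternatives tried were other scalings, filters, groups and tests.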

Additional observations from a re-analysis of the deposited data

Results flagged for a closer look

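In 168 groups of 6 arrays (each gene of the set, in the Y arrays and in the other arrays), 3 single arrays stood far from the other 5 by Dixon's test. This is below the rate of about 1 in 20 groups that the test gives for 6 like and independent arrays. Each 6 arrays held title groups of 2, so that rate need not apply and the count cannot be set against chance. Ndufs7, an iron-sulfur core subunit of complex I, read 10.09 in 6Y-2, and the other Y arrays lay between 9.77 and 9.88. Atp5g1 read 11.07 in array 1-5, and the other arrays without a Y lay between 10.86 and 10.92. Cox7a1, the muscle form of a complex IV subunit, read 5.10 in 42WKKA, and the other arrays without a Y lay between 4.74 and 4.85. The cause was not tested.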

How the results depend on the processing

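In 42Y against 42WKK, 1 gene of the set was called. The count was 0 after quantile normalization, without the 6K arrays, with these groups compared alone and with group 1 in place of 42WKK (chosen after seeing the data), where the median difference was 0.0268. It was 10 of 76 genes with a mean log2 of at least 6, beside 1721 of all 11788 clusters. It was 4 with a variance trend, beside 1113 of 35556, and 4 with clusters of 1 symbol, beside 1000 of 21789. With the mean of all clusters of a gene it was 2, beside 862 of 19938 genes. The unmoderated per-cluster test, which the header of the study's supplementary table names, gave 0 adjusted and 13 unadjusted. Unadjusted, 3817 of all 35556 clusters passed. Leaving out 1 array gave 0 to 1 genes and a median of -0.0948 (without 42WKKB) to -0.0027 (without 42Y-1). In 16Y against 6Y (1 called), the count was 0 after quantile normalization, without the 6K arrays, with the groups alone and in the unmoderated adjusted test, and 0 to 1 without single arrays. It was 4 after median centring or with clusters of 1 symbol, 5 with the mean of clusters, 7 with a trend, 11 with a mean of at least 6 and 14 unadjusted. In 42WKK against group 1 (12 called), it was 25 with a mean of at least 6, 20 with a trend, 5 without the 6K arrays, 0 with the groups alone, 0 and 34 in the unmoderated test (adjusted and unadjusted), and 0 (without 1-5, 42WKKA or 42WKKB) to 13 without single arrays. In 16Y against 6Y, 966 of 35556 clusters were called after centring, 1179 of 21789 with 1 symbol and 1349 of 35556 with a trend. With the mean of clusters 1031 of 19938 genes were called, and with a mean of at least 6 2011 of 11788 clusters. Unadjusted, 4243 of 35556 passed. In 42WKK against group 1, 3753 of 11788 were called with a mean of at least 6 and 2986 of 35556 with a trend. Unadjusted, 6076 of 35556 passed. Where 0 genes of the set were called, a mean of at least 6 gave 1 in the interaction, 6 in 42WKK against 6K and 1 in the Y arrays. A trend gave 1 in 42WKK against 6K. Over all clusters, a mean of at least 6 gave 622 of 11788 in the interaction, 1456 in 42WKK against 6K and 548 in the Y arrays. A trend gave 845 of 35556 in 42WKK against 6K. The unmoderated unadjusted test gave 2 in 6Y against 6K, 14 in the interaction and 5 in 42Y against 16Y. It gave 19 in 42WKK against 6K and 13 in the Y arrays. Of all 35556 clusters it gave 1802, 4214, 2817, 4698 and 4444 in the same order. Fewer clusters or arrays enter some of these fits, and the cause of other changes was not tested.

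Replicate numbers did not pair the arrays, as deviations of same-numbered arrays correlated at -0.0363 to 0.0549. With a replicate block the counts were 0 in 16Y against 6Y, 6Y against 6K and 42Y against 16Y, and no block could be fitted with 42WKK, whose arrays have letters.

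The median of the set changed sign in 42WKK against group 1 (0.05), to -0.0302 after quantile normalization, when 4 genes were called higher and 4 lower, and was 0.182 after median centring, with 17 higher and 0 lower. It also changed sign in the interaction, to 0.0107 after quantile normalization, in 42WKK against 6K, to 0.00208 after median centring, and in 6Y against 6K, to 0.0155 without 6K-1 (-0.0704 without 6K-2). Median centring gave -0.20 in 16Y against 6Y and 0.13 in 42Y against 16Y.

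Small differences in 6Y against 6K changed sign. Without 6Y-2, Atp5g1 was -0.0169 and Cox8a -0.0049, and without 6Y-1 they were 0.528 and 0.213. Uqcrb was -0.0207 without 6Y-1 and 0.217 without 6Y-2, and Cycs was -0.0932 with the mean of all its clusters. Sdhc in 42Y against 42WKK was -0.0038 without 42Y-2 and 0.188 without 42Y-1.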
